A study of Bos taurus with 42 samples.

Results

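*REST* (ENSBTAG00000011789) encodes the RE1-silencing transcription factor, and *RCOR3* (ENSBTAG00000007110) encodes one of the REST corepressors, the CoREST proteins. They are 2 of the 22664 genes counted in this series, and were found by the Ensembl identifiers that the study's supplementary tables pair with these symbols. The study had named both among the transcriptional repressors with more connections in the muscle of fetuses from restricted dams. REST is a zinc finger protein that binds a DNA element near many neuronal genes and keeps them silent outside the nervous system. It recruits a CoREST complex, with a histone demethylase and histone deacetylases, at one end of the protein, and a SIN3 complex at the other. In the developing brain it holds back neuronal genes in progenitors, and its level falls as neurons mature.

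Each of 14 *Bos taurus* fetuses, taken on day 50 of gestation, gave 1 RNA-Seq library of cerebrum, 1 of liver and 1 of hind limb muscle. Angus-cross heifers bred to a common sire were fed from breeding either 100% of their requirement (CON, 7 fetuses, 6 male and 1 female) or 60% of the CON delivery (RES, 7 fetuses, 5 male and 2 female). No fetus carried a genetic modification, and all dams went through the same estrus synchronization and artificial insemination. Each library of a group came from a different fetus, and libraries are named here by diet and fetus number. Cerebrum libraries held 4145093 to 7576159 counts, liver libraries 6658218 to 12741299 and muscle libraries 5384018 to 7592149. *REST* itself had 442 to 847 counts a library in muscle, 99 to 451 in cerebrum and only 14 to 244 in liver, where its level was least precise.

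The tissues carried the markers of their labels. The summed level of 6 hepatocyte markers was 36001 to 106401 CPM in the liver, at most 5807 CPM in the cerebrum and at most 50.1 CPM in muscle. *HNF4A*, a hepatocyte transcription factor, had no count in any cerebrum or muscle library. The summed level of 9 skeletal muscle markers was 1502 to 11364 CPM in muscle, at most 237 CPM in the cerebrum and at most 37.6 CPM in the liver. That of 8 neural transcription factors was 166 to 614 CPM in the cerebrum and at most 1.49 CPM in the liver, and in muscle it was at most 1.72 CPM in all but RES 1 (5.99 CPM) and CON 73 (28.97 CPM).

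Some libraries stood apart from the others of their tissue. The cerebrum library of RES 1 had a summed level of 237 CPM for the 9 skeletal muscle markers, against 16.4 or less in the other 13, and 278 CPM for 8 blood cell markers, against 93.9 or less. Its most abundant marker from another tissue was *TTR*, a hepatocyte marker that the choroid plexus also expresses, at 5632 CPM. The muscle libraries of CON 73 and RES 1 had summed levels of 2397 and 687 CPM for 25 neuronal genes known as REST targets, against 204 or less in the other 12. *PRPH*, a marker of peripheral neurons, was highest in CON 73, at 816 CPM against a median of 9.14. The muscle libraries of RES 1 and RES 6 had the highest skeletal muscle markers, at 10392 and 11364 CPM, against a median of 4677 CPM. In the liver, 12 protein-coding genes of the mitochondrial genome took 4.04% to 67.7% of a library's counts, and 7 libraries were above 12%. These were RES 1 (67.7%), CON 2 (44.9%), RES 6 (35.6%), RES 33 (30.5%), CON 23 (16.4%), RES 55 (12.6%) and RES 25 (12.5%). The results below are given with and without these libraries where they bear on them.

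*REST* was highest in muscle, intermediate in the cerebrum and lowest in the liver. In muscle its level ran from 50.0 to 90.9 CPM (counts scaled to a common depth per library by TMM over the 42 libraries) with a median of 79.1, in the cerebrum from 18.4 to 75.0 with a median of 47.4, and in the liver from 3.39 to 45.5 with a median of 18.7. The lowest muscle library was above the highest liver library, whereas the cerebrum overlapped with both. Within a fetus, *REST* was lower in the liver than in muscle in 14 of 14 fetuses, lower in the liver than in the cerebrum in 13 of 14 and lower in the cerebrum than in muscle in 13 of 14. On the log2 CPM scale the means were 6.23 ± 0.27 (SD, n = 14) in muscle, 5.46 ± 0.59 in the cerebrum and 3.79 ± 1.35 in the liver.

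All 3 differences of *REST* passed edgeR's quasi-likelihood test. *REST* was lower in the liver than in the cerebrum by a log2 fold change of -1.37 (SE 0.27, adjusted p = 1.45e-05), and lower in the liver than in muscle by -2.06 (SE 0.27, adjusted p = 6.58e-09). It was higher in muscle than in the cerebrum by 0.69 (SE 0.26, adjusted p = 0.0176). These calls stand beside a high background, since 83.6%, 82% and 68.1% of the 15972 genes tested differed in the same comparisons, and 45.2%, 45.5% and 32.2% did so in the direction of *REST*. Without the 7 livers above 12% mitochondrial counts, the differences were -0.56 (adjusted p = 0.00996), -1.29 (adjusted p = 6.64e-07) and 0.73 (adjusted p = 6.86e-05), so that both liver differences were over 1.5 times smaller (42.8%, 42.8% and 35.4% of genes were called in these directions). Scaled by library size only, the difference between muscle and cerebrum was 0.65 with an adjusted p of 0.092, and the call was lost. In bulk tissue, fewer cells of a type and less RNA per cell cannot be told apart.

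*RCOR3* was lowest in the liver, and no difference between cerebrum and muscle passed the test. Its level ran from 20.7 to 38.01 CPM in the cerebrum, from 18.4 to 35.2 CPM in muscle and from 5.39 to 19.7 CPM in the liver. No liver library reached the lowest cerebrum library, and within every one of the 14 fetuses the liver was below both other tissues. *RCOR3* was lower in the liver than in the cerebrum by a log2 fold change of -1.05 (SE 0.14, adjusted p = 5e-09) and lower than in muscle by -1.08 (SE 0.14, adjusted p = 3.11e-09). Between muscle and cerebrum the log2 difference was 0.02 (SE 0.14, adjusted p = 0.885), with a sign that turned under DESeq2's size factors (-0.03) and with library size only (-0.0036). Without the 7 livers above 12% mitochondrial counts the liver differences were -0.62 (adjusted p = 1.94e-05) and -0.69 (adjusted p = 4.83e-06), again over 1.5 times smaller. Without fetuses 1 and 73 the tissue differences of *REST* were -1.36, -2.04 and 0.68 and those of *RCOR3* were -1.005, -1.05 and 0.04, in the same order of comparisons.

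**Figure D1:**
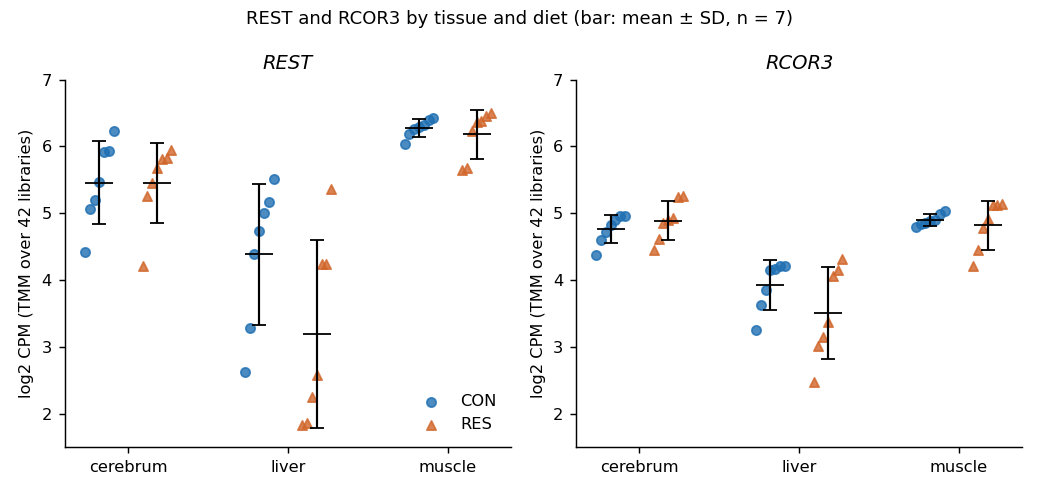
Levels of *REST* (left) and *RCOR3* (right) as log2 CPM, scaled by TMM over the 42 libraries, in the cerebrum, the liver and muscle. Each point is a fetus (circles CON, triangles RES) and the bars give the mean ± SD of 7 fetuses. *REST* spreads over 1.82 to 5.51 in the liver, and 2 RES muscle libraries, at 5.65 and 5.68, lie below the other 12.

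Of the 11 partners and regulators of REST that could be named, 9 were lower in the liver than in the cerebrum and 2, *HMG20B* and *NCOR1*, were higher, beside 45.2% and 38.5% of all genes. Of the 9, *SRRM3* and *SRRM4* did not pass the filter on low values within the liver, so that their direction was set by it. Of 14 subunits and partners of the CoREST complex other than RCOR3, 3 had a symbol and were measured, and of 18 members of the SIN3, NCOR and chromatin remodelling corepressors, 4. HMG20B, a DNA-bending subunit of the CoREST complex, went opposite to *RCOR3*: *HMG20B* was at 87.2 ± 17.7 CPM in the liver, 43.8 ± 4.62 in muscle and 21.0 ± 9.05 in the cerebrum (SD, n = 14 each). It was higher in the liver than in the cerebrum by a log2 fold change of 2.06 (adjusted p = 2.83e-18), and by 0.99 when library size alone set the scale (adjusted p = 3.66e-07, where 19.9% of genes were higher). Against muscle it was higher in the liver by 0.99 (adjusted p = 3.13e-09, with 36.6% of genes higher), but not with library size only (-0.08, adjusted p = 0.648). *PHF21A*, whose product binds unmodified histone H3, and *CTBP2*, a corepressor, were lower in the liver than in the cerebrum, by -1.20 (adjusted p = 2.9e-12) and -1.57 (adjusted p = 3.58e-18), as *RCOR3* was.

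*NCOR1*, a nuclear receptor corepressor, was higher in the liver than in the cerebrum by 0.62 (adjusted p = 1.48e-06), but lower by -0.54 (adjusted p = 2.48e-05) with library size only, where 65.8% of genes were lower. *SMARCA4*, *SMARCC1* and *SMARCE1* encode subunits of the SWI/SNF remodeller, and all 3 were lower in the liver than in the cerebrum, by -0.49, -0.61 and -0.53. Among 12 regulators of REST, 4 were measured. *FBXW11*, a ubiquitin ligase subunit of the family that marks REST for degradation, was lower in the liver than in the cerebrum by -0.97 (adjusted p = 3.77e-11), and differed between muscle and cerebrum by 0.12 (SE 0.10, adjusted p = 0.328).

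*SRRM4* and *SRRM3* encode neuronal splicing factors, the first of which switches REST to a truncated form in neurons. *SRRM4* was at 13.2 ± 5.86 CPM in the cerebrum and *SRRM3* at 11.9 ± 4.86 (SD, n = 14 each). In the liver each had no count in 11 of 14 libraries, where 3 counts would amount to 0.447 to 1.24 CPM. In muscle, *SRRM4* had no count in 9 libraries and *SRRM3* in 5, and CON 73 had the highest level of both, at 5.43 and 9.01 CPM. Counts per gene do not separate the transcripts of *REST*, so the truncated form was not measured.

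The neuronal genes that are known as REST targets were lower in liver and muscle than in the cerebrum. Of 32 genes on this list, 25 had a symbol. Symbols came from the study's tables of results from these same data, so the choice of the 25 was not independent of them. The summed level of the 25 ran from 3077 to 11302 CPM in the cerebrum, from 148 to 2397 CPM in muscle and from 39.5 to 111 CPM in the liver. All 25 were lower in the liver than in the cerebrum, with a median log2 fold change of -8.78, against a median of -0.17 over all genes and 45.2% of them lower. In muscle 24 of 25 were lower than in the cerebrum, with a median of -4.75, against -0.06 over all genes and 35.9% lower. Only 8 of the 25 passed the filter on low values within the liver and 18 within muscle. The others entered the test through their level in another tissue, most of all the cerebrum, so that their direction was largely set by the filter and the counts and medians are a description. The 8 were all lower in the liver, and of the 18 all but *BDNF* were lower in muscle. The 25 other neuronal genes, listed for comparison, went the same way. With DESeq2's size factors, 25 of them were lower in the liver than in the cerebrum (median -8.04) and 22 in muscle (median -4.12). Of the targets, 25 (median -8.84) and 24 (median -4.81) were lower on that scaling, beside 7359 and 6135 of 15972 genes. The pattern was thus not particular to the targets.

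In the cerebrum the most abundant targets were *STMN2* and *TUBB3*, both of the neuronal microtubules, *GRIA2*, a glutamate receptor subunit, *STMN3*, a relative of *STMN2*, and *L1CAM*, an adhesion molecule of axons. *STMN2* was at 2408 ± 1049 CPM (SD, n = 14) in the cerebrum, at a median of 15.4 CPM in muscle and at a median of 2.21 CPM in the liver. *BDNF*, a neurotrophin, was the exception in muscle: its level was 1.70 ± 0.92 CPM in the cerebrum and 1.90 ± 0.85 CPM in muscle (log2 difference 0.14, SE 0.29, adjusted p = 0.683). *CDK5R1*, the neuronal activator of the kinase CDK5, was the exception in the liver. It was at 26.3 ± 16.6 CPM there, at 53.0 ± 29.1 CPM in the cerebrum and at 3.10 ± 1.98 CPM in muscle, and was higher in the liver than in muscle by a log2 fold change of 3.03 (SE 0.34, adjusted p = 1.19e-10). Both exceptions were singled out after their values were seen.

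The liver, which had less *REST* than muscle, also had the lower summed level of the targets (at most 111 CPM, against 148 CPM or more in muscle). Gene by gene, 21 of the 25 targets were lower in the liver than in muscle, with 1 higher and a median log2 difference of -3.77 (all genes -0.21, 45.5% lower). Most of the 25 did not pass the filter within the liver, so that their direction was largely set by it and the count is a description. This count rested in part on the muscle libraries of CON 73 and RES 1. Without fetuses 1 and 73, 14 targets were lower in the liver than in muscle and 2 were higher, with a median of -0.88 (all genes -0.15, 43.8% lower and 37.4% higher). Of the 25 other neuronal genes, 18 were then lower and 2 higher, with a median of -2.62. The counts against the cerebrum were 25 and 24 of 25 without these fetuses too (43.5% and 35.1% of all genes). Without the 7 livers above 12% mitochondrial counts, 24 of 25 were lower in the liver than in the cerebrum (42.8% of all genes), and *CDK5R1* no longer passed (log2 difference -0.43, adjusted p = 0.26).

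**Figure D2:**
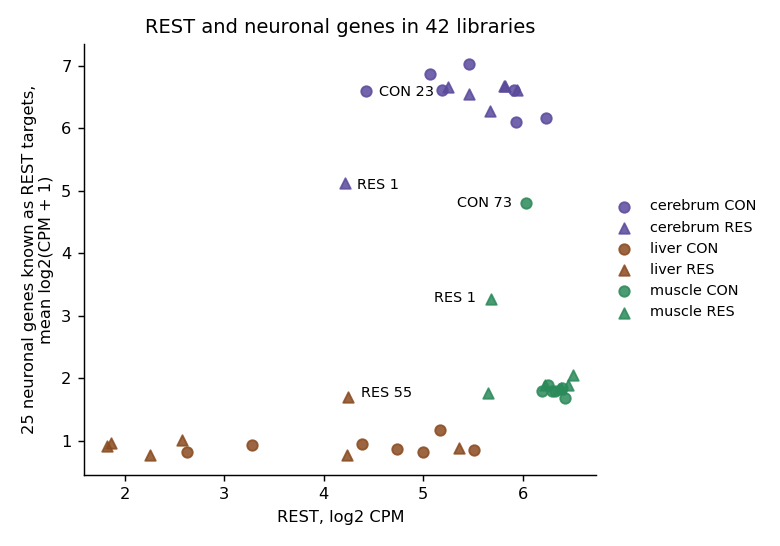
*REST* in log2 CPM against the mean log2(CPM + 1) of 25 neuronal genes known as REST targets, with 1 point per library and colours for the tissues (circles CON, triangles RES). The cerebrum lies at 5.12 to 7.04 on the vertical axis, most muscle libraries near 1.8 with CON 73 at 4.80 and RES 1 at 3.27, and the liver at 0.77 to 1.69 over the whole range of *REST*.

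Within the cerebrum, the relation of *REST* with its targets was not resolved, and its sign turned with 1 library. Correlations within a tissue used variance stabilized counts (VST), and 9 relations were computed. For *REST* and the mean of the 25 targets, Pearson's r was 0.24 (permutation p = 0.413, adjusted p = 0.465) and Spearman's rho was -0.36 (permutation p = 0.21). The 2 libraries with *REST* farthest from the median were CON 23 and RES 1, with 21.3 and 18.4 CPM. Without them r was -0.63 (permutation p = 0.0283, n = 12), and with RES 1 alone left out it was -0.62 (permutation p = 0.0237, adjusted p = 0.0533). No fetus left out and no alternative brought the adjusted p under 0.05. In CON alone, which includes CON 23, r was -0.74, and in RES alone, which includes RES 1, it was 0.88. Gene by gene, 9 of the 25 targets had a negative r with *REST* over 14 fetuses (median 0.11), from -0.52 for *TUBB3* to 0.68 for *CELF5*. Without CON 73 and RES 1, 20 of 25 were negative (median -0.33), from -0.91 for *TUBB3* to 0.36 for *CELF5*. Of the 25 other neuronal genes, 7 were negative over 14 fetuses (median 0.20) and 16 without these libraries (median -0.19). CON 73 and RES 1 were left out alike in every tissue. CON 73 stood apart in muscle, while its cerebrum library had 36.4 CPM of *REST*, within the range of the others. The cerebrum library of RES 1 was low in *REST* and in the targets (mean log2(CPM + 1) 5.12, against 6.10 or more in the others) and was also the one with markers of other tissues. That of CON 23 was low in *REST* but had the highest summed level of the targets, at 11302 CPM against 7804 or less. It also stood apart in its TMM factor, 0.746 against 1.05 or more in the other cerebrum libraries.

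In CON cerebrum, 4 of the 25 targets (*CHGB*, *SCG2*, *SYP* and *TUBB3*) had an r below -0.9 with *REST* and none had an r above 0.9, beside 5.1% of all genes past 0.9 in either direction. In RES cerebrum, none was below -0.9 and 5 of the 25 were above 0.9, beside 14.8% of all genes past 0.9 in either direction. The 5 included *CDK5R1*, *CELF5*, *ELAVL3* and *GRIA2*. Of 24 other neuronal genes, 3 were below -0.9 in CON and 9 above 0.9 in RES, with none the other way. These connections were thus not particular to the targets. The targets are named because of their correlation, over 7 fetuses a diet, and RES includes the library of RES 1.

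In muscle and in the liver the mean of the targets had no relation with *REST* that passed adjustment, but the result depended on the measure in the liver and on the libraries and markers regressed out in muscle. In muscle, r of *REST* with the mean of the 18 targets that passed the filter was -0.38 (permutation p = 0.16, adjusted p = 0.288). Without RES 1 and RES 6, the libraries with *REST* farthest from the median, it was -0.58 (permutation p = 0.0554), and without CON 73 and RES 1 it was 0.14. With the skeletal muscle markers regressed out it was -0.56 and passed (adjusted p = 0.0342), and with the mitochondrial share regressed out it was 0.11. Of the 18 single correlations 14 were negative over 14 fetuses and 7 without CON 73 and RES 1. The 21 other neuronal genes went the same way, with 16 negative and 6 without these libraries. In the liver, r with the 8 targets that passed was 0.46 (permutation p = 0.0953, adjusted p = 0.214), and r with the log2 of the summed CPM of the list was 0.89 (adjusted p = 0.000675). *CDK5R1* was the most abundant target in the liver, and its r with *REST* was 0.93 over the 14 livers. With the same means, r of *RCOR3* was 0.24 (cerebrum), 0.35 (liver) and -0.10 (muscle), none past an adjusted p of 0.05. With the log2 of the summed CPM in the liver, r of *RCOR3* was 0.72 and passed (adjusted p = 0.00954). In the same livers, *REST* and *RCOR3* had r of -0.89 and -0.91 with the log2 mitochondrial share of counts. The part of that share in the relations with the summed CPM was not tested.

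The diets were compared within each tissue with fetal sex in the model. No gene passed an adjusted p of 0.05 in any tissue by edgeR (0% of 15151 cerebrum, 13527 liver and 14947 muscle genes), with 386, 3260 and 1481 genes (2.55%, 24.1% and 9.91%) at an unadjusted p under 0.05. DESeq2's Wald test called 0, 78 and 14 genes, and neither *REST* nor *RCOR3* was called by any of the tests run.

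In the cerebrum the *REST* levels of CON were 75.0, 21.3, 61.0, 43.9, 60.0, 33.3 and 36.4 CPM (fetuses 2, 23, 46, 54, 68, 69 and 73), and those of RES were 18.4, 61.3, 50.9, 37.98, 56.0, 56.7 and 43.8 CPM (fetuses 1, 6, 25, 33, 52, 55 and 70). The groups overlapped over nearly their whole range. The log2 difference of RES from CON was -0.08 (SE 0.28, adjusted p = 0.999), and that of *RCOR3* was 0.11 (SE 0.16, adjusted p = 0.999), with levels of 20.7 to 30.9 CPM in CON and 21.6 to 38.01 CPM in RES. Without RES 1 the difference of *REST* was 0.07, and without CON 2 it was 0.08.

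In the liver, *REST* was 6.03, 9.54, 45.5, 20.7, 31.8, 35.7 and 26.5 CPM in CON, and 5.81, 3.47, 4.61, 3.39, 18.7, 18.8 and 40.9 CPM in RES, with the fetuses in the same order. Of the RES livers 4 lay below every CON liver, and the other 3 lay within the range of CON. The log2 difference was -1.40 (SE 0.54, unadjusted p = 0.0192, adjusted p = 0.184 by edgeR), beside 24.1% of genes at an unadjusted p under 0.05 and 10.6% that were lower in RES at it. By p, *REST* was at rank 1394 of 13527 genes. An exact permutation test of the mean log2 CPM gave a difference of -1.19 with p = 0.104. Without sex in the model the difference was -0.84 (adjusted p = 0.502).

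*RCOR3* in the liver was 9.36, 12.2, 18.4, 14.3, 17.8, 18.4 and 17.7 CPM in CON and 5.39, 7.92, 10.2, 8.69, 19.7, 16.5 and 17.6 CPM in RES. The lowest 2 libraries were RES 1 and RES 6, and the highest was RES 52, so the ranges overlapped. The log2 difference was -0.43 (SE 0.27, adjusted p = 0.304), and -0.73 (adjusted p = 0.106) without RES 52.

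The same livers differed in their mitochondrial share of counts. All 4 RES livers with *REST* below CON (1, 6, 25 and 33) were among the 7 above 12%, and the 2 CON livers above 12% (2 and 23) were the lowest of CON. Over the 14 livers, r of *REST* with the log2 of the share was -0.89 (permutation p = 4e-05, adjusted p = 0.00024 over 12 relations chosen after the values were seen; rho -0.87) and -0.86 without RES 6 and RES 33. For *RCOR3*, r was -0.91 (adjusted p = 0.00024; rho -0.85) and -0.85 without RES 1 and RES 6. With the log2 share as a covariate the diet difference was -0.37 for *REST* and -0.0035 for *RCOR3*. Among the livers at or under 12%, 5 of CON and 2 of RES, it was -0.28 (adjusted p = 0.947) and 0.14 (adjusted p = 0.947). Markers of other cells moved with some of the same livers. *TEK*, a receptor of the endothelium and the only endothelial marker with a symbol, was at 30.2 and 34.9 CPM in CON 2 and CON 23, the lowest of CON, and at 19.8 to 32.9 CPM in RES 1, 6, 25 and 33. RES 52, below 12%, was also low at 22.1 CPM, and RES 55, above 12%, was at 46.2 CPM. Its log2 difference between the diets was -0.66 (SE 0.20, unadjusted p = 0.00495, adjusted p = 0.184). The mean log2(CPM + 1) of 8 blood cell markers was 9.30 to 9.53 in 6 of the 7 livers above 12%, with RES 55 at 9.19, and 9.04 to 9.29 in the others except RES 52, at 9.45. Between the diets 2 of these 8 were higher in RES at an unadjusted p under 0.05, as 13.5% of all genes were, and 0 of 6 hepatocyte markers differed at it (median log2 difference -0.02). The part of cell makeup in the liver values was not tested.

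**Figure D3:**
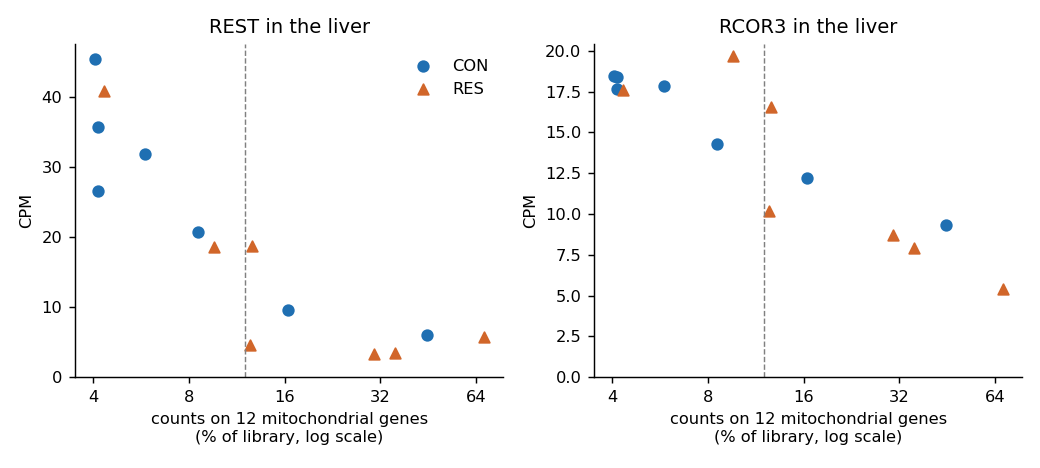
*REST* (left) and *RCOR3* (right) in CPM against the percent of the library's counts on 12 mitochondrial genes, on a log scale, in 14 livers (circles CON, triangles RES). The dashed line is at 12%. All livers to its right have at most 18.8 CPM of *REST*, and both CON livers there are the lowest of their group.

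In muscle, *REST* was 86.1, 78.2, 76.3, 73.01, 83.8, 79.9 and 65.4 CPM in CON and 51.1, 50.0, 83.3, 82.1, 74.9, 87.5 and 90.9 CPM in RES. RES 1 and RES 6 were the lowest of the 14 and 2 other RES libraries (55 and 70) the highest, so that RES enclosed CON. The log2 difference was -0.13 (SE 0.12, adjusted p = 0.721). It was -0.048 without RES 1, -0.046 without RES 6 and 0.07 without both. *RCOR3* was 29.6, 31.7, 28.6, 27.5, 32.7, 28.6 and 29.4 CPM in CON and 21.7, 18.4, 34.6, 34.7, 27.2, 30.0 and 35.2 CPM in RES. RES again held both the lowest libraries (1 and 6) and the highest (25, 33 and 70). The log2 difference was -0.09 (SE 0.13, adjusted p = 0.815), and 0.10 without RES 1 and RES 6. The SD of log2 CPM in muscle was 0.13 in CON and 0.36 in RES for *REST*, and 0.09 and 0.36 for *RCOR3*.

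The diet by tissue interaction, which asks whether the diet difference varies between tissues, gave an adjusted p of 0.829 for *REST* (unadjusted p = 0.112) and 0.83 for *RCOR3* (unadjusted p = 0.227), with 0 of 15972 genes called and 5.62% at an unadjusted p under 0.05. Of the 18 neuronal targets tested in muscle, 15 had lower estimates in RES, as 7756 of all 14947 genes did. Their median log2 difference was -0.69, against -0.01 over all genes, and 0 had an unadjusted p under 0.05. The 21 other neuronal genes were all lower, with a median of -0.67. Without CON 73 and RES 1, 7 of 15 targets and 6 of 19 other neuronal genes were lower, with medians of 0.07 and 0.08. Of the corepressors, *NCOR1* in the liver (0.47, SE 0.18, unadjusted p = 0.0173, adjusted p = 0.184) and *HMG20B* in muscle (0.18, SE 0.07, unadjusted p = 0.0313, adjusted p = 0.482) were under 0.05 before adjustment. At that limit 13.5% of genes in the liver and 5% in muscle were higher in RES. *NCOR1* was highest in the liver of RES 1, at 358 CPM against a median of 155, which also had the highest mitochondrial share. The summed level of *NCOR1* and the 3 SWI/SNF genes was 567.7 to 913.8 CPM in 6 of the 7 livers above 12% and at most 527 CPM in the others, and the part of the mitochondrial share in it was not tested.

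*REST* and *RCOR3* were positively related across the fetuses in all 3 tissues. Pearson's r was 0.77 in the cerebrum (permutation p = 0.0012, adjusted p = 0.0036; rho 0.78), 0.90 in the liver (permutation p = 6e-05, adjusted p = 0.00054; rho 0.84) and 0.89 in muscle (permutation p = 0.00036, adjusted p = 0.00162; rho 0.73). Without the 2 libraries with *REST* farthest from the median, r was 0.60 in the cerebrum (permutation p = 0.0366), 0.86 in the liver (permutation p = 0.00033) and 0.56 in muscle (permutation p = 0.0583). In muscle those 2 were RES 1 and RES 6, and without them the relation was weaker, with a permutation p no longer under 0.05. In the liver, r was 0.47 (adjusted p = 0.229) once the log2 mitochondrial share was regressed out of both genes.

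The pair was more tightly related in RES muscle than in CON muscle, by a difference that did not pass adjustment over the 3 tissues. In CON muscle r was 0.27 (exact p = 0.545, n = 7) and in RES muscle 0.94 (exact p = 0.00496, n = 7). The difference of the Fisher-transformed r was 1.49 (exact permutation p = 0.0344, adjusted p = 0.103), and 2 of the 14 fetuses, CON 68 and RES 55, brought the adjusted p to 0.0456 when left out. Without RES 1 and RES 6, r in RES muscle was 0.67 (n = 5), and the difference was 0.53 (exact permutation p = 0.549, adjusted p = 0.824). The corresponding r were 0.85 in CON and 0.84 in RES in the cerebrum and 0.97 and 0.85 in the liver, with exact permutation p of 0.956 and 0.265 for the differences. The study had named both genes for their connections in RES muscle, so that the muscle result is not independent of their choice.

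**Figure D4:**
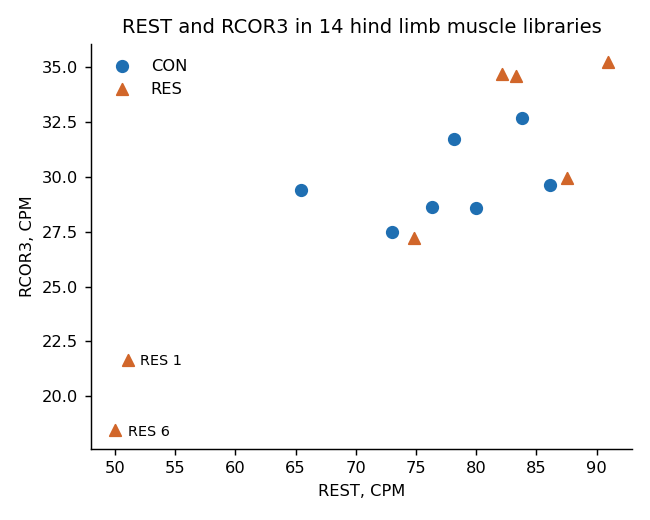
*RCOR3* against *REST* in 14 muscle libraries, both in CPM (circles CON, triangles RES). CON lies between 65.4 and 86.1 CPM of *REST*, and RES 1 and RES 6 lie at the lower left, at 51.1 and 50.0 CPM of *REST* and 21.7 and 18.4 CPM of *RCOR3*.

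The connections of a gene were counted as the genes with a Pearson r past 0.9 in size in 1 diet, leaving out the 20% of genes that varied least for their mean. The study filtered out indirect connections and kept only pairs with a differentially expressed gene or a transcription factor. Neither step was applied here, so the counts and z-scores are not on the study's basis. The counts are a description, with no test. In muscle, *REST* had 103 connections in CON, where the median of 11957 genes was 88, and 1824 in RES, where the median was 199. *RCOR3* had 17 in CON and 1563 in RES. The gain, as a z-score over all genes of the difference in relative connectivity, was 2.23 for *REST* and 2.08 for *RCOR3*, and 2.68% of genes had a gain past the usual limit of significance for a z-score. In RES muscle 0.677% of genes had as many connections as *REST* and 4.03% as many as *RCOR3*.

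The counts were lower without RES 1 and RES 6. With both left out, *REST* had 852 connections in RES and *RCOR3* 733, while the median gene rose to 563 over the 5 remaining fetuses, and the z-scores were 0.81 and 0.80. At that size 19.1% of genes had as many connections as *REST* and 30.4% as many as *RCOR3*. With a single fetus left out, the z-score ran from 1.84 (without CON 46) to 2.92 (without CON 73) for *REST* and from 1.74 (without RES 25) to 2.62 (without CON 73) for *RCOR3*. Counted by Spearman's rho it was 1.40 for *REST* and 2.83 for *RCOR3*.

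**Figure D5:**
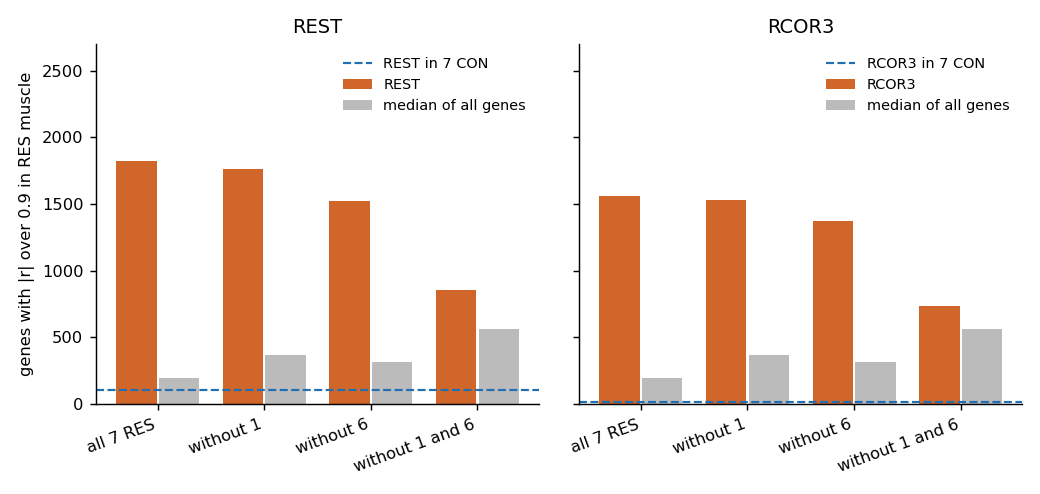
Number of genes with an r past 0.9 in size with *REST* (left) and *RCOR3* (right) in RES muscle, over all 7 fetuses and with RES 1, RES 6 or both left out (orange), beside the median of all genes (grey) and the gene's own number in 7 CON fetuses (dashed line, 103 and 17). With both fetuses left out, *REST* and *RCOR3* have 852 and 733 connections and the median gene has 563.

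The markers of cell types moved with both genes in muscle. RES 1 and RES 6 had the lowest *REST* and *RCOR3*, the highest skeletal muscle markers and, at 269 and 260 CPM, lower cartilage and limb mesenchyme markers than 11 of the other 12 libraries. In 12 relations chosen after the values were seen, r with the mean of the 9 skeletal muscle markers was -0.69 for *REST* (permutation p = 0.00641, adjusted p = 0.00952; rho -0.42) and -0.80 for *RCOR3* (permutation p = 0.00061, adjusted p = 0.00244; rho -0.74). With the 5 mesenchyme markers it was 0.84 (adjusted p = 0.00249; rho 0.48) and 0.72 (adjusted p = 0.00952; rho 0.45), and with 6 Schwann cell markers -0.76 and -0.71. With the log2 mitochondrial share it was -0.72 for *REST* (adjusted p = 0.00879; rho -0.54) and -0.52 for *RCOR3* (adjusted p = 0.0665; rho -0.33). Without RES 1 and RES 6 these were -0.18 and -0.57, 0.49 and 0.14, -0.53 and -0.41, and -0.49 and -0.057, and none had a permutation p under 0.05. The part of the cell makeup and of the mitochondrial share in the connections was not tested.

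Neuronal targets were among the connections in RES muscle at shares near those of all genes. *REST* had 2 of 18, *BDNF* and *MAPK8IP1*, a kinase scaffold protein, and *RCOR3* had 3, *CHGA*, *GRIA2* and *MAPK8IP1*. These are shares of 11.1% and 16.7%, beside 15.3% and 13.1% of all genes. In CON muscle none of the 18 was connected with either gene. The connections of *REST* in RES were 881 positive and 943 negative, and those of *RCOR3* were 682 positive and 881 negative.

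The connections went the other way in the liver. *REST* had 3325 in CON and 1095 in RES (z -2.04), and *RCOR3* had 3275 and 1613 (z -1.48), with medians of 507 and 547 over all genes and 4.32% of genes with a loss past the limit. Both genes had an r near -0.9 with the mitochondrial share in these livers, whose part in the connections was not tested. Without RES 1 the z-score of *REST* was -1.15, and without RES 52 that of *RCOR3* was -0.65. In the cerebrum, *REST* had 618 in CON and 1796 in RES (z 0.67, beside 2.29% of genes with a gain past the limit), and a z of -0.84 without RES 1. *RCOR3* was among the genes of low variance that were removed there.

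Pairs whose r differed between the diets were called with the normal approximation of Fisher's z and adjusted over all pairs of a tissue, which is a description at 7 fetuses a diet. In muscle, *REST* was in 61 such pairs, 28 with a higher r in RES and 33 with a lower one, at rank 32 of 11957 genes, where the median gene had 1 and 70% had at least 1. *RCOR3* was in 12. Without RES 1 and RES 6 there were 4 and 1, and with the means of the sexes removed 5 and 6. In the cerebrum *REST* was in 37 (median 16, with 95.4% of genes in at least 1), and in 0 without RES 1. In the liver *REST* was in 0 and *RCOR3* in 1, as 26.6% of genes were.

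On the log2 CPM scale, the genes most like *REST* over all 42 libraries, among 5096 with a symbol, were *ETV3* (r = 0.96), an ETS family repressor, and *FAM3C*, *RAB23*, *ZDHHC20* and *GNB4* (r of 0.95 each). *RCOR3* was most like *VEZF1* (r = 0.97), a zinc finger protein of the endothelium, *TIA1*, an RNA-binding protein, *DMTF1*, *TET2*, a DNA demethylase, and *TBC1D23* (r of 0.96 each). The other member of the pair, at r = 0.92, was at rank 36 for *REST* and 73 for *RCOR3*. These values describe libraries that share the differences between tissues. Over the 14 muscle libraries, also on the log2 CPM scale and not on VST as above, the most alike were *WDFY1* (r = 0.97), *TENT2*, *TRIP11*, *THBS1* and *WWTR1* for *REST*, and *RFX7* (r = 0.96), *CHD1*, *MED14*, *XRN1* and *STAG1* for *RCOR3*. The lowest r were those of *SDHB* (-0.93), a subunit of the mitochondrial respiratory chain, *SLC25A11* and *TRMT112* with *REST*, and of *PHB* (-0.92), *NLE1* and *SSPN* with *RCOR3*. *RCOR3* was at rank 36 for *REST* in muscle, and *REST* at rank 30 for *RCOR3* (r = 0.90).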

How the data were processed

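Raw counts per gene were deposited by the authors, who sequenced strand-specific 50-bp paired-end libraries and aligned and counted the reads with STAR 2.7.3a on ARS-UCD1.2 after quality control with FastQC 0.11.8. The strand setting of the counts is not given in the sources used here. Symbols for 5131 of 22664 genes came from the study's supplementary tables, and 108 of 174 listed symbols matched. Those tables hold results of these same data, so that which genes could be named depended in part on them. The members and the gene lists were chosen with earlier results of these data known. Genes under 1 CPM in at least 80% of libraries were left out. Differences were tested with edgeR 4.0.16 (R 4.3.3, TMM, quasi-likelihood, Benjamini-Hochberg adjustment), over 42 libraries for tissues and within a tissue with sex for diets. DESeq2 1.42.0 was an alternative. It also gave the variance stabilized counts for correlations (scipy 1.17.1, 100000 permutations). The fits were tested on simulated data.

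Genes named were both members, up to 5 members of a list with the highest mean CPM in a tissue, and the 5 most and 3 least alike genes, with exceptions and connected list genes named after their values were seen. Some genes of the lists are not reported here. Each fetus gave all 3 tissues, which pairs the libraries. Deviations from group means correlated between same-numbered libraries with medians of 0.03 (cerebrum and liver), 0.06 (cerebrum and muscle) and 0.12 (liver and muscle). Alternatives were other scalings, filters, covariates and tests, the fetus as a block, and fetuses left out. Leaving out the libraries that stood apart was added after the data were seen.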

Additional observations from a re-analysis of the deposited data

Results flagged for a closer look

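In 18 of 48 groups of 7 libraries, 1 library lay farther from the other 6 than Dixon's 95% limit for its group's range, where chance gives 2.4. *REST* itself was in 1 of them: the cerebrum of RES 1, at 4.21 log2 CPM, was the lowest, and the next RES library was at 5.25. The same library had the lowest neuronal REST targets (mean log2(CPM + 1) 5.12) and other neuronal genes (5.27), and the highest skeletal muscle (3.21) and mesenchyme (3.93) markers.

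In muscle, CON 73 was highest of CON for the REST targets (4.80), the other neuronal genes (5.50) and the peripheral neuron markers (8.64), and lowest for the mesenchyme markers (5.00). RES 1 was highest of RES for the REST targets (3.27), the other neuronal genes (3.89) and the peripheral neuron markers (6.68). The hepatocyte markers were highest in the muscle of CON 54 (1.85) and RES 70 (2.20). In the liver, CON 69 was highest of CON for the REST targets (1.18), and RES 55 was highest of RES for the REST targets (1.69), the other neuronal genes (1.73) and the peripheral neuron markers (2.78).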

How the results depend on the processing

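Of 856 values of 39 results under an alternative, 735 were taken as unchanged, and the causes of the other changes were not tested. Differences and correlations had to keep their direction and their side of the threshold, and interactions only their side. Connectivity z-scores had to move by less than their spread with a fetus left out, and counts to stay within a fixed factor. A difference or correlation that was not called was thus unchanged when it stayed uncalled with the same sign. With the fetus as a replicate block the tissue differences were -1.45, 0.75 and -2.20 for *REST* and -1.08, 0.03 and -1.11 for *RCOR3* (liver minus cerebrum, muscle minus cerebrum, liver minus muscle), the interaction had an adjusted p of 0.91 for both, and no call changed.

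With library size only, the median gene moved by -1.03 (liver minus cerebrum), -0.01 and -1.02 (liver minus muscle), and *REST* in muscle minus cerebrum was 0.65 and no longer called. *RCOR3* in muscle minus cerebrum was -0.033 with DESeq2's size factors, -0.032 with its Wald test, -0.030 with the stricter filter, -0.0036 with library size only, and -0.015 to 0.11 with a fetus left out. For diet, *RCOR3* in the liver was 0.14 without livers above 12%, and without RES 1 and RES 6 *REST* and *RCOR3* in muscle were 0.066 and 0.096. With a fetus left out, *REST* was -0.19 to 0.084 in the cerebrum, -2.0003 to -1.14 in the liver and -0.19 to -0.046 in muscle, and *RCOR3* was -0.73 to -0.31 in the liver and -0.17 to 0.00033 in muscle. DESeq2's Wald test called 78 genes in the liver and 14 in muscle, and the mitochondrial covariate gave 3 in muscle.

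The correlation of *REST* with *RCOR3* was 0.69 in the cerebrum without RES 1 and RES 6 and 0.85 in CON alone. In the liver it was 0.47 with the mitochondrial share regressed out and 0.85 in RES alone, and in muscle 0.56 without RES 1 and RES 6 and 0.27 in CON alone. The difference between diets was 0.14 in the cerebrum with sex and diet means removed, and with a fetus left out -0.51 to 0.27 there and 1.10 to 1.80 in muscle.

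With the neuronal targets in the cerebrum, *REST* had r of -0.66 without RES 1 and RES 6, -0.62 without CON 73 and RES 1, -0.22 with the mitochondrial share regressed out, -0.11 with summed CPM, -0.74 in CON alone, 0.88 in RES alone, and -0.62 to 0.37 with a fetus left out. *RCOR3* had -0.36, -0.24, -0.42, -0.094, -0.48, 0.62, and -0.26 to 0.34. Summed CPM gave 0.89 and 0.72 in the liver, and both passed (adjusted p = 0.000675 and 0.00954). In muscle *REST* had 0.14 without CON 73 and RES 1, 0.11 with the mitochondrial share and -0.56 with the skeletal muscle markers regressed out (adjusted p = 0.0342). *RCOR3* had 0.0041 without RES 1 and RES 6, 0.19 without CON 73 and RES 1, 0.33 with the mitochondrial share regressed out, 0.19 in CON alone, and -0.42 to 0.077 with a fetus left out.

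The connectivity gain z of *REST* in the cerebrum was -0.98 by Spearman and -0.84 to 1.08 with a fetus left out. In the liver, *REST* had -2.47 with sex means removed, -2.65 at an r of 0.95, and -2.35 to -1.15, and *RCOR3* had -1.85, -2.45, and -2.21 to -0.65. In muscle, *REST* had 0.81 without RES 1 and RES 6, 2.65 at 0.95, 1.40 by Spearman, and 1.84 to 2.92, and *RCOR3* had 0.80, 2.31 with no dispersion filter, 2.83 by Spearman, and 1.74 to 2.62. Differentially co-expressed pairs of *REST* in the cerebrum numbered 66 on log2 CPM, 127 with sex means removed, and 0 to 119 with a fetus left out. In the liver they were 0 to 3 for *REST* and 0 to 23 for *RCOR3*. In muscle, *REST* had 5 with sex means removed, 4 without RES 1 and RES 6, and 16 to 99, and *RCOR3* had 6 on log2 CPM, 6 with sex means removed, 1 without RES 1 and RES 6, and 0 to 17.

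With 7 fetuses a diet, correlations within a diet were imprecise, and 14 to 244 counts on *REST* limited the liver.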
